A study of Homo sapiens with 4 samples.

Results

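The genes described here encode the protein machinery of caveolae. They are the caveolins CAV1 and CAV2, the cavins CAVIN1, CAVIN2 and CAVIN3, the neck ATPase EHD2 and the membrane-bending protein PACSIN2. All 7 were matched by symbol to an Ensembl identifier among the 60617 gene entries of the count matrix, and 5 of them were among the 17374 genes with enough reads to be tested. The RNA came from SKNMC, an established human Ewing sarcoma cell line, as 2 libraries from cells given 1 µM CBL0137 and 2 from cells given the DMSO vehicle, all after 24 h. CBL0137, a curaxin, intercalates into DNA and holds FACT, a histone chaperone, in chromatin. No genetic change was made, so both groups carry the fusion of the parental line, and no label states whether replicates were grown as separate cultures. The p-values therefore measure the spread between these libraries, which may be technical.

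Caveolae are small flask-shaped pits of the plasma membrane, rich in cholesterol, that flatten when the membrane is stretched and take part in lipid uptake and signalling. Caveolin-1 inserts into the membrane and assembles into oligomers, which caveolin-2 can join, and cavin-1 is recruited from the cytosol to coat them. EHD2 forms a ring at the neck that holds the pit at the surface, and PACSIN2 is an F-BAR protein that bends the neck membrane. Both caveolin-1 and cavin-1 are needed for caveolae in non-muscle cells. CAV1 is also on published lists of genes activated by EWSR1-FLI1, the fusion transcription factor of Ewing sarcoma, whose FLI1 part binds DNA at GGAA, singly or in tandem.

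The sequences upstream of the caveolin genes and of EHD2 are shown because these genes moved in opposite directions with CBL0137. RefSeq promoter windows (GRCh38.p14) were found for 5 of the 7 genes. CAVIN1 and CAVIN3 were not matched. The 250 bases before the most upstream RefSeq start are printed 5′ to 3′ on the strand of the gene, with each GGAA and its reverse TTCC in capitals. They lie at chr7:116524759-116525008 for CAV1, chr7:116499488-116499737 for CAV2 and chr19:47713172-47713421 for EHD2, all on the plus strand. On GRCh37 the CAV2 window lies at 116139542 to 116139791, within the annotated CAV2 gene, which starts further upstream at 115927434.
CAV1: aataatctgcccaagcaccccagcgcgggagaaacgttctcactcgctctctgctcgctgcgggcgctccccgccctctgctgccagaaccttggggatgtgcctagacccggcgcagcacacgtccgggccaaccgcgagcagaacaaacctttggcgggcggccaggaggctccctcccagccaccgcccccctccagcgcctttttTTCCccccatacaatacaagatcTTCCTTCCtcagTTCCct
CAV2: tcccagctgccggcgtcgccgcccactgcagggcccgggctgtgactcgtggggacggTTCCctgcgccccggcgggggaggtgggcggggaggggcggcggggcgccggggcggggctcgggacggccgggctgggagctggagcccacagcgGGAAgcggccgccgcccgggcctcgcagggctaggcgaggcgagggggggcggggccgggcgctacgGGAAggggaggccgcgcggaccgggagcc
EHD2: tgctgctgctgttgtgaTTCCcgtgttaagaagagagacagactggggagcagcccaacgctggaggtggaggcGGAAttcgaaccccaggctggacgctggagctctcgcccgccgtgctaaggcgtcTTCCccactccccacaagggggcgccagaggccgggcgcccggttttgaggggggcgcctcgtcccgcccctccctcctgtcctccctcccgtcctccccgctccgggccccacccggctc

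The CAV1 window held 4 matches to GGAA on either strand, the CAV2 window 3 and the EHD2 window 3, against a median of 3 over 34943 promoter windows of the same length. GGAA is short, and 92.7% of those windows held at least 1 match. The CAVIN2 window, not printed, held 6 matches. The PACSIN2 windows, also not printed, held 1 match at the most upstream start and 4 or 5 at the others. The CAV1 window also held the tandem GGAAGGAA, on the opposite strand as TTCCTTCC, whose letters lie 18 to 11 bases before the start. The tandem includes 2 of the 4 single matches. It occurred in 3.06% of all windows and in none of the printed CAV2 and EHD2 windows. Another CAV1 start, close downstream, has a window that overlaps the first and holds the same tandem, and the window of the most downstream CAV1 start held 0 GGAA matches. The GC box GGGCGG, searched on both strands, occurred 3 times before CAV1, 6 times before CAV2 and 1 time before EHD2, and at least 1 time in 42.5% of all windows. Another CAV2 start, downstream of the printed window, has a window with 0 GGAA matches and 3 GC boxes. On GRCh37, 138 bases of that window fall in an annotated exon. GC content was 63.6% for CAV1, 83.2% for CAV2 and 69.6% for EHD2, against a median of 58%. The CAV1 window matched GRCh37 at 1 place, where its last 15 bases fall in an annotated exon of a transcript with an earlier start. These matches describe the letters of the reference, and binding was not measured.

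The caveolin genes fell and the genes of the main coat protein and the neck ATPase rose. Of the 5 tested genes, CAV1 and CAV2 were called lower, CAVIN1 and EHD2 were called higher, and PACSIN2 was not called (edgeR quasi-likelihood test, adjusted p under 0.05 over all genes and fold above 1.5). Over all 17374 tested genes, 15.1% were called lower, 18.2% higher and 33.4% in either direction. The median log2 fold change was 0.01 over all tested genes and -0.09 over the 5 caveola genes, where it is the value of PACSIN2 and averages over opposite changes. CAVIN2 and CAVIN3 did not pass the filter on low counts. Together the 7 genes took 1382 and 1396 CPM (here reads scaled to the library total alone) with DMSO and 509 and 521 with CBL0137. CAV1 alone made up 81.3% and 81.7% of these reads with DMSO and 52.7% and 55.4% with CBL0137.

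**Figure D1:**
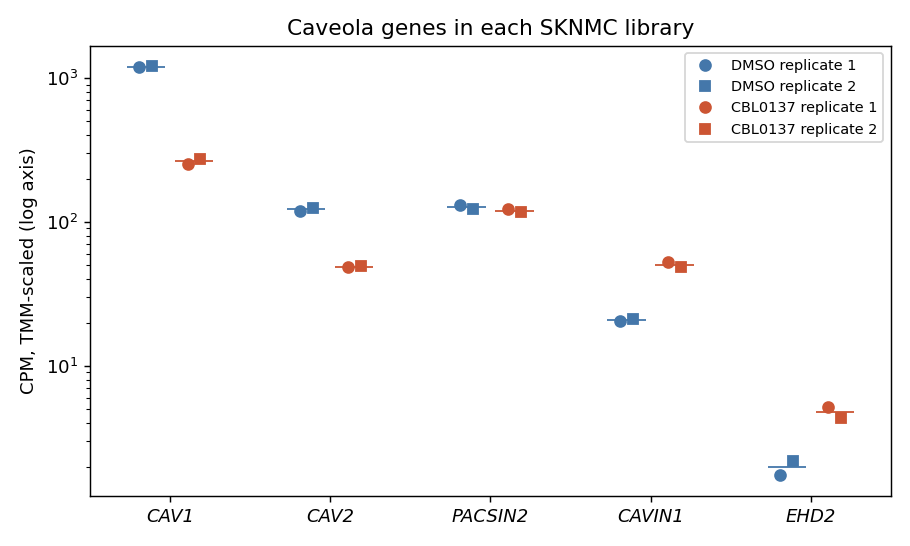
CPM of the 5 tested caveola genes (log axis) in each library, with DMSO in blue, CBL0137 in red, circles and squares for replicates 1 and 2, and lines at the group means. CAV1 and CAV2 sit lower in both CBL0137 libraries, CAVIN1 and EHD2 sit higher in both, and PACSIN2 lies between 118 and 132 CPM throughout.

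CAV1, the gene of caveolin-1 (ENSG00000105974, GRCh37 chromosome 7, 116165048 to 116201233, plus strand), was by far the most abundant of the 7. It had 22566 and 22385 reads with DMSO (replicates 1 and 2, the order used throughout) and 5576 and 6085 with CBL0137. On the CPM scale, reads scaled to library depth with TMM factors, these were 1193 and 1203 against 254 and 275. The DMSO libraries were nearly alike, and both CBL0137 libraries lay far below them. The log2 fold change was -2.18 (SE 0.06, edgeR adjusted p = 1.1e-30), a 4.53-fold fall, and 225 of the tested genes had a lower value. By FPKM, the depth- and length-scaled value that the authors deposited, CAV1 ranked 136 and 128 among all gene entries with DMSO and 637 and 563 with CBL0137. Even after its fall it had the highest FPKM of the 7 genes in every library.

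CAV2, the gene of caveolin-2 (ENSG00000105971, chromosome 7, 115927434 to 116148595, plus strand), lies directly upstream of CAV1. Its reads numbered 2264 and 2300 with DMSO and 1066 and 1097 with CBL0137, or 120 and 124 CPM against 48.5 and 49.5 CPM. Replicates were close to each other and the groups were well apart. The log2 fold change was -1.31 (SE 0.06, edgeR adjusted p = 1.1e-21), a 2.48-fold fall. CAV2 overlaps non-coding genes on the opposite strand, as does CAV1 for 1 such gene, and whether the counting used strand is not known here.

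The fall was steeper for CAV1 than for CAV2, which could be read within each library without any scaling between libraries. For 1 CAV2 read there were 9.97 and 9.73 CAV1 reads with DMSO, and 5.23 and 5.55 with CBL0137. The ratio thus changed by -0.87 on the log2 scale, and by -1.07 when it was taken from FPKM. Per length, CAV1 made up 92.1% and 92.5% of the summed FPKM of the 2 caveolins with DMSO and 84.6% and 85.6% with CBL0137. CAV1 therefore remained the main caveolin transcript in all 4 libraries. These ratios carry no p-value, since an exact permutation test of 2 libraries against 2 cannot give less than 0.333. The muscle caveolin gene CAV3 had 2 and 2 reads with DMSO and 0 and 4 with CBL0137, too few to be tested.

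CAVIN1, the gene of the coat protein cavin-1 (ENSG00000177469, chromosome 17, 40554467 to 40575274, minus strand), moved the other way. It had 390 reads in each DMSO library and 1149 and 1076 with CBL0137, or 20.6 and 21 CPM against 52.3 and 48.6 CPM. Both CBL0137 libraries lay far above both DMSO libraries. The log2 fold change was 1.28 (SE 0.08, edgeR adjusted p = 4.3e-17), a 2.43-fold rise. Counts of CAVIN1 overlap 1 other annotated gene on the same strand.

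CAVIN2, whose product helps to set caveola shape, and CAVIN3, whose product links cavin-1 to signalling proteins, were barely seen. CAVIN2 had 2 and 0 reads with DMSO and 0 and 1 with CBL0137. CAVIN3 had 0 and 1 with DMSO and 0 in both CBL0137 libraries. A count of 0 allows up to 0.153 CPM on the library total in DMSO replicate 2 and up to 0.142 in CBL0137 replicate 2, counting error only. A fall or a small change in either gene was not detectable at this depth. A rise to the level of EHD2 with CBL0137, at 114 and 96 reads, was not seen. The only other cavin with more than a few reads was CAVIN4, which is known from muscle. It had 252 and 256 reads with DMSO and 209 and 229 with CBL0137, and its log2 fold change was -0.45 (SE 0.13, edgeR adjusted p = 0.00249), within the fold limit. CAVIN4 was at 3.23 and 3.33 FPKM with DMSO, a little under CAVIN1 at 3.79 and 3.85. With CBL0137 it was at 2.49 and 2.61 FPKM, well under CAVIN1 at 10.5 and 9.78.

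The ratio of CAV1 to CAVIN1 changed the most of those computed. Per CAVIN1 read there were 57.9 and 57.4 CAV1 reads with DMSO, and 4.85 and 5.66 with CBL0137. Per length, the FPKM ratio was 83.5 and 84.5 with DMSO and 6.74 and 8.03 with CBL0137. The change in the read ratio of CAVIN1 to CAV1 was 3.46 on the log2 scale, and lay between 3.35 and 3.57 when any 1 library was left out. CAV2 went from 7.21 and 6.81 times the FPKM of CAVIN1 to 1.22 and 1.35 times. Transcript ratios do not give the amounts of protein, which were not measured.

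**Figure D2:**
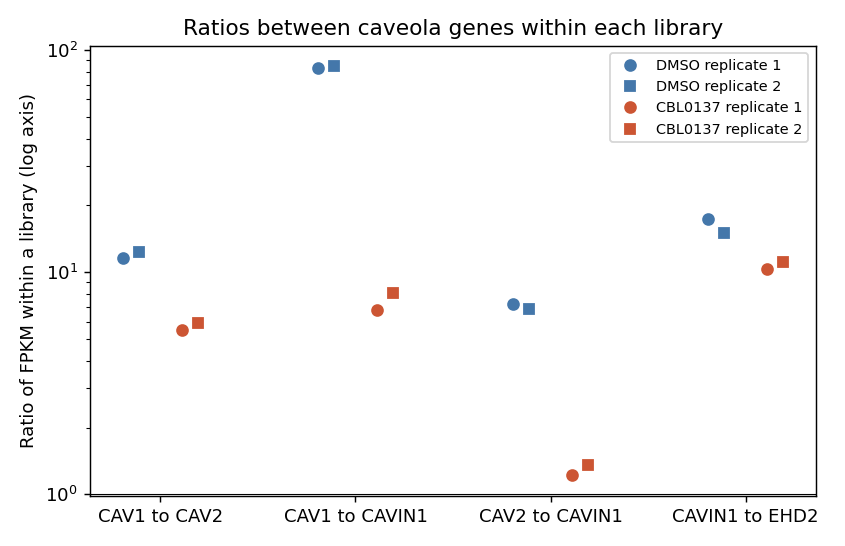
Ratios of deposited FPKM between pairs of caveola genes within each library (log axis), with DMSO in blue, CBL0137 in red, and circles and squares for replicates 1 and 2. The CAV1 to CAVIN1 ratio was 83.5 and 84.5 with DMSO and 6.74 and 8.03 with CBL0137, while CAVIN1 to EHD2 went from 17.4 and 15.1 to 10.3 and 11.1.

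EHD2, the gene of the ATPase at the caveola neck (ENSG00000024422, chromosome 19, 48216679 to 48246391, plus strand), was low and rose. Its reads numbered 33 and 41 with DMSO and 114 and 96 with CBL0137, or 1.74 and 2.2 CPM against 5.19 and 4.34 CPM. The groups did not overlap, as was true of 79.9% of all tested genes. The log2 fold change was 1.27 (SE 0.25, edgeR adjusted p = 2.5e-05), a 2.41-fold rise. Its SE was the largest of the 5 tested members, and its counts the lowest. Without DMSO replicate 1 the value was 1.09, and without DMSO replicate 2 it was 1.43. With log2(FPKM + 1) it was 0.66, still called, on a scale that draws changes of low genes toward 0. In reads, the CAVIN1 to EHD2 ratio was 11.8 and 9.51 with DMSO and 10.1 and 11.2 with CBL0137, so that the groups overlapped and the genes rose by similar factors. The FPKM ratios did not overlap, at 17.4 and 15.1 against 10.3 and 11.1. On the chromosome, EHD2 overlaps another annotated gene on the same strand.

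PACSIN2, the gene of the F-BAR protein (ENSG00000100266, chromosome 22, 43231418 to 43411155, minus strand), had 2501 and 2284 reads with DMSO and 2673 and 2623 with CBL0137. These were 132 and 123 CPM against 122 and 118 CPM, values that nearly touch. The log2 fold change was -0.09 (SE 0.06, edgeR adjusted p = 0.183), and it was 0.07 with library size alone and 0.45 with log2(FPKM + 1), not called in any of these. The FPKM of PACSIN2 was 13.4 in DMSO replicate 1 and 24.1, 24.5 and 25.4 in the other libraries, although its reads in DMSO replicate 1 were not low. FPKM in the matrix cannot be had by rescaling its counts (5103 genes with 0 reads in all libraries have an FPKM above 0), so these scales can part for a single gene. PACSIN2 also overlaps ARFGAP3 on the same strand.

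Ordered by FPKM with DMSO, the members ran from CAV1 (317 to 325) over CAV2 (26.2 to 27.4), PACSIN2 (13.4 to 24.1) and CAVIN1 (3.79 to 3.85) to EHD2 (0.218 to 0.255). With CBL0137 the order was CAV1 (71 to 78.5), PACSIN2 (24.5 to 25.4), CAV2 (12.9 to 13.2), CAVIN1 (9.78 to 10.5) and EHD2 (0.883 to 1.03). Neighbours in each order did not overlap between libraries, except CAVIN2 and CAVIN3, which were near 0. The order of the middle genes depended on the length used. With CPM per kilobase of all annotated exons, PACSIN2 (26.9 to 29) stood above CAV2 (18.2 to 18.8) already with DMSO. On that scale CAVIN1 (13.6 to 14.6) stood above CAV2 (7.38 to 7.53) with CBL0137. CAV1 was first and EHD2 the last of the 5 on both scales in both groups.

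Of 7 family relatives of the members 6 were tested, and 4 were called higher and 0 lower, where 18.2% of all tested genes were called higher and 15.1% lower, with a median log2 fold change of 0.73 (0.17 with log2(FPKM + 1)). EHD1, an ATPase of endosomal recycling, rose from 30.4 ± 1.12 to 55 ± 4.31 CPM (SD, n = 2), and its log2 fold change was 0.85 (SE 0.08, edgeR adjusted p = 1.2e-12). Its paralogs EHD4 (0.95, SE 0.25) and EHD3 (0.61, SE 0.19) were called higher at no more than 147 reads in a library. All 4 genes of the EHD family were thus called higher, but EHD3 was not called by DESeq2 (0.60), by FPKM (0.69 and 0.33 with pseudocounts of 0.1 and 1) or without CBL0137 replicate 2 (0.55) or DMSO replicate 1 (0.57). EHD4 was not called with log2(FPKM + 1) (0.31).

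PACSIN1, best known from neurons, had 26 and 44 reads with DMSO and 68 and 84 with CBL0137. Its log2 fold change of 0.88 (SE 0.28) was not called by DESeq2 (0.87), by FPKM (0.26 and 0.03), with no filter on low counts (0.86), without CBL0137 replicate 2 (0.72) or without DMSO replicate 1 (0.52). PACSIN3, the other paralog, was at 22.5 ± 2.19 and 24.8 ± 0.488 CPM (SD, n = 2), and its log2 fold change was 0.14 (SE 0.10, edgeR adjusted p = 0.211). The count of relatives called higher was therefore 4 by the main test, 2 with DESeq2, 2 and 1 with FPKM (pseudocounts of 0.1 and 1), and 2 without CBL0137 replicate 2 or without DMSO replicate 1. EHD1 was called in all of these.

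**Figure D3:**
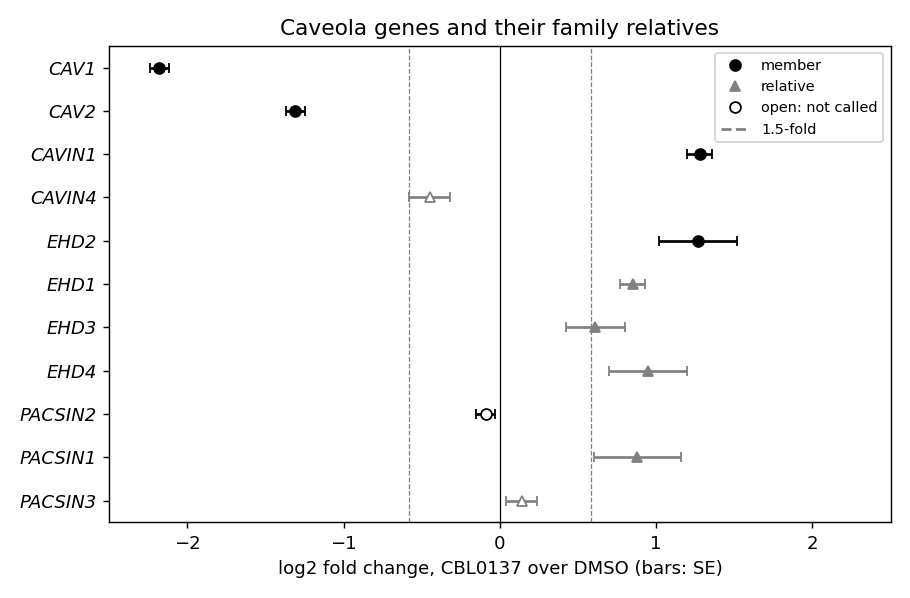
Log2 fold changes of CBL0137 over DMSO with SE bars for the tested members (black circles) and their relatives (grey triangles), where open symbols were not called and dashed lines mark a fold of 1.5. The caveolins lie at -2.18 and -1.31, and the EHD genes lie between 0.61 and 1.27.

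CAV1 and CAV2 share a stretch of chromosome 7 with MET, already known to fall in these data when the window was set. Within 500 kb of the pair, 8 protein-coding genes are annotated on GRCh37, and 7 of them were tested, of which 4 were called lower and 1 higher. TES, a focal adhesion gene that starts 314 kb before CAV1, had 131 and 155 reads with DMSO and 66 and 71 with CBL0137, and its log2 fold change was -1.29 (SE 0.20, edgeR adjusted p = 3.2e-07). MET, the receptor tyrosine kinase gene that starts 147 kb after CAV1, had 2140 and 2170 reads with DMSO and 640 and 577 with CBL0137, and its log2 fold change was -2.06 (SE 0.07). The 4 genes that fell, TES, CAV2, CAV1 and MET, are adjacent in the list of protein-coding genes.

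Beyond them the values were different. CAPZA2, of the actin capping complex, was at 143 ± 0.345 and 144 ± 1.1 CPM (SD, n = 2), and its log2 fold change was 0.01 (SE 0.05). ST7 rose by 0.65 (SE 0.08, edgeR adjusted p = 4.5e-09), and TFEC on the other side, with at most 70 reads in a library, was at 0.17 (SE 0.29). Calls in this window are to be read against the 33.4% of all tested genes that were called, and CAV1 and CAV2 are in the window by definition.

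**Figure D4:**
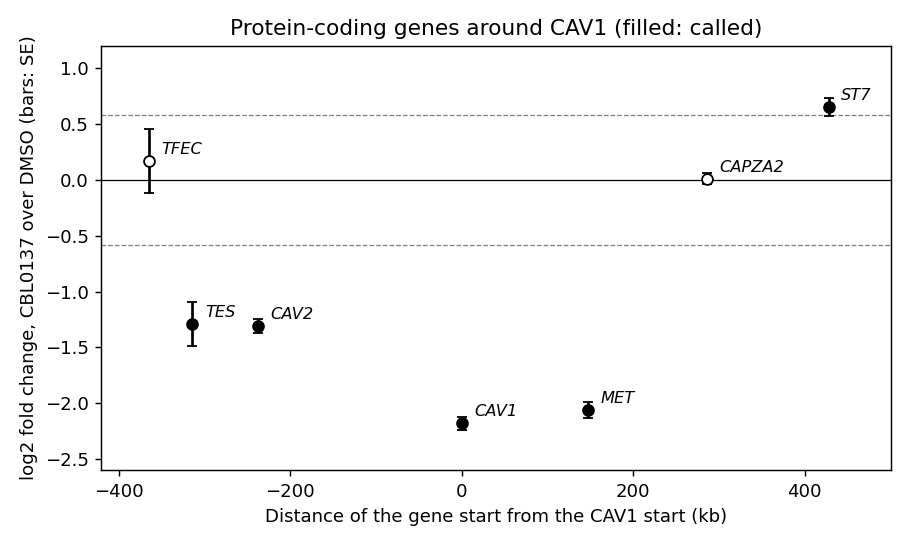
Log2 fold change of CBL0137 over DMSO with SE bars for the 7 tested protein-coding genes around CAV1, against the distance in kb between the start of each gene and that of CAV1. Starts are those of the annotated genes, so CAV2 is plotted upstream of the RefSeq start of its printed window. Filled points were called and dashed lines mark a fold of 1.5. TES, CAV2, CAV1 and MET lie at or below -1.29, while TFEC, CAPZA2 and ST7 lie between 0.01 and 0.65.

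Among 353 protein-coding genes with an average log2 CPM within 1 of that of CAV1, the 3 whose centred log2 CPM over the 4 libraries lay nearest to it were PSAT1, CLSTN2 and EIF4EBP1. PSAT1, a serine synthesis enzyme gene, had 1213 and 1211 CPM with DMSO and 238 and 292 with CBL0137, at a Euclidean distance of 0.128. CLSTN2, a calsyntenin gene, went from 934 and 972 CPM to 230 and 242 CPM, at a distance of 0.172. EIF4EBP1, the gene of a translation repressor, went from 759 and 682 CPM to 135 and 155 CPM, at a distance of 0.186. With 4 libraries in 2 groups this likeness is mostly that of the difference between groups.

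Genes that act with caveolae came next. In a list of 16 genes of vesicle scission, actin tethers and caveola traffic, all were tested, and 2 were called higher, 2 lower and 12 neither, with a median log2 fold change of 0.00015. Of all tested genes, 33.4% were called in either direction. The neuronal dynamin genes DNM1 and DNM3 rose, by 1.59 (SE 0.08) and 1.68 (SE 0.20, not called by FPKM), and both overlap genes on the opposite strand. FYN, a Src family kinase gene, fell from 239 ± 0.27 to 91.7 ± 5.49 CPM (SD, n = 2), and its log2 fold change was -1.38 (SE 0.06). The lower call other than FYN was that of the protein kinase C gene PRKCA (-0.66, SE 0.12), named because it completes the calls of the list. PRKCA was not called with library size alone (-0.50), by FPKM (-0.55 and -0.30) or without CBL0137 replicate 1 (-0.57). The ubiquitous dynamin gene DNM2, whose product cuts vesicles from the membrane, was at 0.05 (SE 0.05), and the actin crosslinker gene FLNA, a link between caveolae and stress fibres, at 0.38 (SE 0.05), within the fold limit. Both were picked for their role after their values were seen.

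Raft scaffold genes had 3 of 9 tested members lower, 1 higher and 5 not called, against 15.1% lower and 18.2% higher over all tested genes. Their median was -0.34, and it turned to 0.11 with log2(FPKM + 0.1). The flotillin genes, whose products form rafts apart from caveolae, moved in opposite directions. FLOT1 fell from 76.5 ± 3.65 to 43.2 ± 0.205 CPM (SD, n = 2), and its log2 fold change was -0.82 (SE 0.07, edgeR adjusted p = 5.2e-14). FLOT2 rose from 47.4 ± 4.06 to 86.9 ± 2.24 CPM, and its log2 fold change was 0.88 (SE 0.07, adjusted p = 7.9e-15). ERLIN1, of the endoplasmic reticulum, was called lower at -0.60, but not with library size alone (-0.44), upper-quartile factors (-0.53), the stricter filter (-0.55) or FPKM (-0.44 and -0.42). The remaining lower call was that of STOM, the stomatin gene, with at most 43 reads in a library (-1.15, SE 0.40). It was not called by DESeq2 (-1.17), by FPKM (-0.81 and -0.23), with no filter (-1.17) or without CBL0137 replicate 1 (-0.71) or DMSO replicate 1 (-0.87). With FPKM or the stricter filter 1 member was called lower.

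Of 14 listed receptors and enzymes found at caveolae in other cells, 9 were tested, and 1 was called higher, 1 lower and 7 neither, where 33.4% of all tested genes were called. Their median was -0.15 (0.01 with library size alone). PDGFRA had 10 and 4 reads with DMSO and 34 and 36 with CBL0137, and TGFBR2 had 23 and 25 against 10 and 5. Both calls rest on few reads and were lost with log2(FPKM + 1), that of PDGFRA also with log2(FPKM + 0.1) (0.35), and that of TGFBR2 also without CBL0137 replicate 2 (-1.48). EGFR and CD44 had 0 reads in all 4 libraries. ROR1, the gene of a receptor known to bind caveolin-1 and cavin-1, had a log2 fold change of -0.36 (SE 0.09), within the fold limit, and was picked after its value was seen.

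The clathrin coat serves another route of endocytosis. Of 22 listed genes 21 were tested, and 4 were called higher and 3 lower, a share near the 33.4% of all tested genes called in either direction. The median log2 fold change was 0.19. The adaptor genes HIP1 (-0.81, SE 0.06) and DAB2 (-1.02, SE 0.09) fell, and the uncoating kinase gene GAK rose by 0.66 (SE 0.06). The other calls were EPS15 (-0.66), and FCHO1 (1.32), FCHO2 (0.86) and SYNJ1 (0.77), all of the early coat or its removal. The calls for HIP1 (-0.67 and -0.53), EPS15 (-0.30 and -0.28) and FCHO1 (0.95 and 0.44) were lost with FPKM, where 1 member was called lower, and with library size alone 6 were called higher and 2 lower, EPS15 (-0.51) not among them. The clathrin heavy chain gene CLTC, picked after its value was seen, was at 542 ± 11.3 and 634 ± 0.778 CPM (SD, n = 2), and its log2 fold change was 0.23 (SE 0.05).

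**Figure D5:**
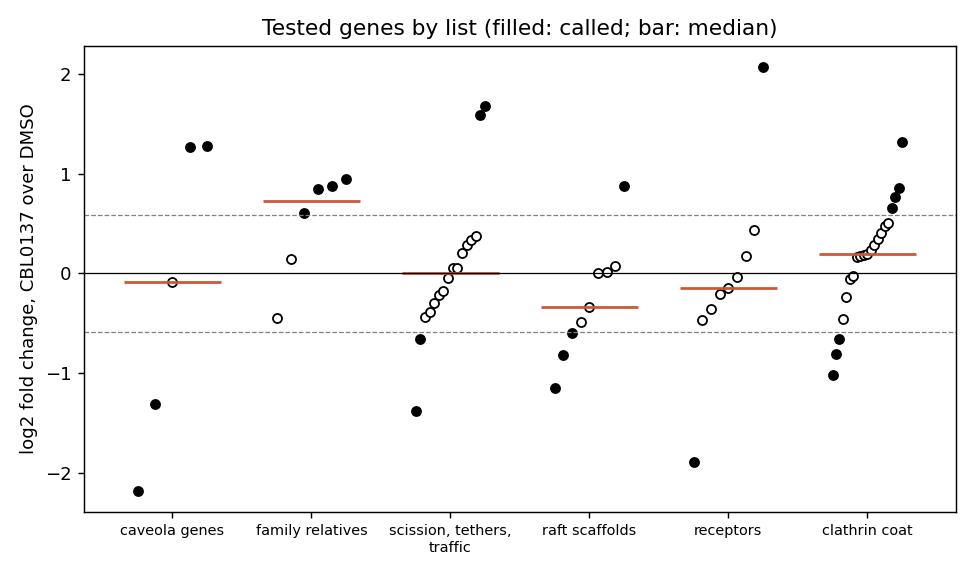
Log2 fold change of CBL0137 over DMSO for the tested genes of 6 lists, with filled points for called genes, open points for the others, dashed lines at a fold of 1.5 and a red bar at the median. The caveola genes split into 2 lower, 2 higher and 1 near 0, with a median of -0.09.

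Libraries held 20086664 and 19625517 gene reads with DMSO and 20767817 and 21061892 with CBL0137. Of 9 Ewing sarcoma markers all were tested, and 4 were called lower and 0 higher, where 15.1% of all tested genes were called lower. PRKCB (-1.18, SE 0.05) and BCL11B (-0.93, SE 0.05) kept their lower call in all alternatives. With library size alone NR0B1 (-0.51) and CD99 (-0.53) were not called, which left these 2. NR0B1 was not called by FPKM (-0.54 and -0.53) or without CBL0137 replicate 1 (-0.57) either. Of the 5 markers not called, LIPI (0.35, SE 0.07), NKX2-2 (0.23, SE 0.08) and FLI1 (0.02, SE 0.06) were above 0. EWSR1 (-0.18, SE 0.05) and STEAP1 (-0.24, SE 0.06) were below 0. FLI1 was at 69.9 ± 0.759 and 71.1 ± 2.18 CPM (SD, n = 2). Counts per gene do not separate reads of the fusion from those of unfused EWSR1 or FLI1. Of the FACT subunit genes, SSRP1 fell by 1.12 (SE 0.05) on the log2 scale and SUPT16H was at -0.33 (SE 0.05), within the fold limit. Markers of cell types rich in caveolae were taken as sums. The 8 endothelial markers (3 tested, 1 higher, 1 lower) took 10.7 to 11 CPM with DMSO and 9.83 to 10.4 with CBL0137, and the higher call (CDH5) was lost with DESeq2 and the lower (EMCN) with FPKM. The 6 adipocyte markers (1 tested, called higher) took 0.43 to 0.529 CPM and 2.39 to 2.5 CPM, with ADIPOQ and FABP4 at 0 reads throughout. Most of this sum was PLIN1, the gene called, with 10 and 6 reads with DMSO and 50 and 49 with CBL0137. PLIN1 overlaps PEX11A on the same strand and was not called with log2(FPKM + 1) (0.40). The 6 smooth muscle markers (5 tested, 2 higher, 1 lower) took 53.3 to 58.1 CPM and 49.6 to 51.7 CPM. Both higher calls, MYH11 and CNN1, were lost with DESeq2, with no filter, without CBL0137 replicate 1 (0.64 and 0.36) and without DMSO replicate 1 (0.82 and 0.62). The lower call was ACTA2 (-2.26, SE 0.34), with 55 and 72 reads with DMSO and 13 and 18 with CBL0137. No alternative that tested ACTA2 lost this call, and the gene overlaps annotated genes on both strands. The 6 fibroblast markers (6 tested, 1 higher, 2 lower) took 750 to 755 CPM and 967 to 997 CPM. Of these, COL1A1 rose from 123 to 456 CPM on average, and LUM (35.3 to 20.3) and FAP (11.9 to 7.09, not called with library size alone) fell. COL3A1 (361 and 323), DCN (157 and 109) and THY1 (64.7 and 66.2) were not called. The part of these genes in the results above was not tested. CPM are shares of the sequenced RNA, so fewer cells with a transcript and less of it per cell cannot be told apart.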

How the data were processed

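RNA-seq was done on 4 SKNMC libraries, 2 per group. The deposited read counts per gene are from HTSeq 0.11.1, run by the authors on HISAT2 alignments to hg19 of reads trimmed with Trim Galore, per the series' design text. The deposited FPKM values scale reads to depth and gene length, per the same text. Neither the annotation release nor the strand setting is given in the sources used here, and the submitters' processing notes also name mm10 without a role. 6 entries of the matrix name no gene and were left out. Reads in no annotated gene were 8.52% and 8.82% of the libraries with DMSO and 10.3% and 10.2% with CBL0137. Genes with a read numbered 25961 and 25973 with DMSO and 27997 and 27887 with CBL0137.

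Counts were tested with edgeR 4.0.16 in R 4.3.3 (quasi-likelihood F test, TMM, filterByExpr), with Benjamini-Hochberg adjustment over the 17374 genes kept. A call needed an adjusted p under 0.05 and a fold above 1.5, the limits of the series' design text. Each SE is the size of the log2 fold change over the root of its F statistic. Replicates differed by more than sampling noise (chi-square per degree of freedom 2.95 and 2.68). Positions came from GENCODE 44 on GRCh37, the build of hg19, and names from a separate table. Alternatives used DESeq2 1.42.0, and limma 3.58.1 on log2 FPKM.

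The members and lists were chosen with earlier results of these data known. Named genes were the 7 members and 7 relatives, up to 3 called genes with the smallest p of each other list, genes within 500 kb of CAV1 or CAV2, the 3 genes nearest to CAV1 in profile, FACT and Ewing sarcoma genes. Others are said to be picked after their values were seen, and values of some named genes are not printed.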

Additional observations from a re-analysis of the deposited data

How the results depend on the processing

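CAV1, CAV2, CAVIN1 and EHD2 kept their direction and their call under all alternatives run, namely other scalings, filters and tests, FPKM, the replicate block, no fold limit and each library left out, so 2 members were called lower and 2 higher each time. CAV1 ranged from -2.02 with library size alone to -2.24 without CBL0137 replicate 2. Library size alone moved the median of all tested genes from 0.01 to 0.17, and the share of calls that were higher from 54.6% to 68.8% (4138 higher and 1877 lower). With log2(FPKM + 1), 1860 genes were called higher and 1363 lower, against 3166 and 2632 in the main test, and with no fold limit 5347 and 5375. The change in the CAV1 to CAV2 ratio was -1.07 with FPKM. PACSIN2 changed sign with library size alone (0.07) and under FPKM (0.47 and 0.45), and PACSIN3 with FPKM (-0.01). Signs also turned for CAPZA2 with DESeq2 (-0.00023) and with no filter (-0.01). With each library left out in turn, TFEC ranged from -0.18 to 0.43, CAPZA2 from -0.01 to 0.02 and FLI1 from -0.01 to 0.05. None of these genes was called, and the cause was not tested. With the replicate number as a block, 3129 genes were called higher and 2612 lower. Deviations of same-numbered libraries correlated at 0.0196 and no label says that the numbers mark a shared culture, so they were not treated as pairs. Over 50 named and tested genes, 538 of 595 alternative values kept the call and sign, 46 lost the call and 0 gained one. Many of these genes were named because the main test called them, and such genes cannot gain a call. Among list genes outside these 50, AAK1 (0.67), CLTA (0.64) and PDGFRB (0.60) gained a call with library size alone. PRKCA (-0.50) and EPS15 (-0.51), also outside, lost theirs in that setting. Ratios per kilobase of exon were added after seeing the data. A ratio of CAVIN3 to CAVIN1 was not computed, since CAVIN3 was at 0 reads in 3 libraries. Depth limits CAVIN2, CAVIN3 and CAV3, which had at most 4 reads in a library.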
